A study of Mus musculus with 4 samples.

Results

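Iron and heme transport proteins are 10 genes of the liver's iron economy, taken from the table by their symbols: Trf, Tfrc, Tfr2, Hfe, Hamp, Slc40a1, Slc11a2, Cp, Hpx and Hp. All 10 were found, each once, among 52630 gene identifiers, and 9 of them passed the filter for testing, a 4-library mean of 1 TPM or more. Hamp did not pass. The groups were AML12 cells infected with shTopors lentivirus, which carries a short hairpin RNA against Topors, a ubiquitin and SUMO ligase, and AML12 cells infected with shCtrl lentivirus, with 2 libraries each. AML12 is a single non-tumour mouse hepatocyte line from a mouse carrying a human TGF-alpha transgene. Cells of both groups grew in DMEM/F12 medium with 10% fetal bovine serum, an ITS supplement and 0.1 µM dexamethasone. They received 200 µl of virus concentrate, had a medium change at 24 hours and were collected 5 days after infection. ITS stands for insulin, transferrin and selenium, so the medium of both groups supplied transferrin. The labels give no separate cultures within a group, so the replicate spread, and each p-value with it, may be technical.

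Hepatocytes make transferrin, the protein that carries iron in plasma, and take the loaded carrier up again through a receptor that is recycled through endosomes. They also sense iron: a surface complex that includes transferrin receptor 2 and HFE feeds into BMP and SMAD signalling, which switches on hepcidin, and hepcidin removes the exporter ferroportin from cell surfaces. Ceruloplasmin oxidises exported iron for loading onto transferrin, while hemopexin and haptoglobin are secreted to bind free heme and free haemoglobin.

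Some of these messages carry iron-responsive elements, short hairpins that bind iron regulatory proteins when cells are short of iron. In a 3′ UTR the element protects a message from decay, and in a 5′ UTR it blocks translation. A pattern of a bulged C, 5 paired bases, the loop CAGTGN and the 5 partner bases was searched on the sense strand in UTRs of 21899 coding genes of GENCODE M21. It was present in 0.708% of them, and 2 of the 10 members held it. The Tfrc 3′ UTR held 4 matches and the Slc40a1 5′ UTR held 1, with Fth1 and Ftl1, the ferritin subunit genes, shown for comparison. Loops are in capitals, as DNA letters on the gene's strand:
Tfrc site at mm10 chr16:32631219-32631248, plus strand: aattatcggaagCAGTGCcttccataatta
Tfrc site at mm10 chr16:32631598-32631627, plus strand: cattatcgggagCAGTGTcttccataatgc
Tfrc site at mm10 chr16:32631663-32631692, plus strand: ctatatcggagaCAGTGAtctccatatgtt
Tfrc site at mm10 chr16:32631710-32631739, plus strand: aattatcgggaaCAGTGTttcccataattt
Slc40a1 site at mm10 chr1:45925464-45925493, minus strand: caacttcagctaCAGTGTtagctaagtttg
Fth1 site at mm10 chr19:9982732-9982761, plus strand: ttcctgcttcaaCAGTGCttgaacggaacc
Ftl1 site at mm10 chr7:45459778-45459807, minus strand: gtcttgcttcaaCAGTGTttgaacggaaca
A match describes the letters only, and other members may hold hairpins that this pattern misses.

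Levels are TPM (transcripts scaled to a fixed total per library), also divided by transcript length, so levels of different genes can be set side by side. TPM keeps no depth, and the number of reads behind a value is unknown. Columns summed to between 999914 and 999943 TPM, and between 12928 and 13847 genes reached 1 TPM in a library. Topors was listed at 4.31 and 4.65 TPM in shTopors and at 21.9 and 29.2 TPM in shCtrl, so both knockdown libraries went with their labels, although Topors itself was not called (log2 difference -2.26, adjusted p = 0.0823 by limma). Of 14 hepatocyte markers, 9 had a mean of at least 1 TPM, and their summed level was 914 and 1123 TPM in shTopors and 1819 and 3101 TPM in shCtrl, with Ttr and Apob the highest. Ttr, the transthyretin gene, carried most of that gap, and without it the markers summed to 719 and 712 TPM in shTopors and to 701 and 933 TPM in shCtrl. None of the 9 was called, and their median log2 difference was -0.26, against -0.18 over all genes tested. The markers Tat, Asgr1, Ahsg, Apoa2 and Fgb had means under 1 TPM. Macrophage, stellate, endothelial and erythroid markers together summed to 2.12 and 3.02 TPM in shTopors and to 2.84 and 3.05 TPM in shCtrl, and 7 of 10 macrophage markers, Cd163 among them, were at 0 in all. Bile duct markers, which AML12 also expresses, summed to 1891 and 1091 TPM in shTopors and to 953 and 1414 TPM in shCtrl. Krt19 alone took 1396 TPM in shTopors 1. Sox9 went the other way, at 26.9 and 42.1 TPM in shTopors and at 76.85 and 91.2 TPM in shCtrl, and Epcam had a mean of 0.04 TPM. The part of the bile duct markers in the results below was not tested. In a bulk sample, fewer cells of a type and less RNA per cell cannot be told apart.

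Differences between groups were tested as log2(TPM + 1) with limma over 13509 genes, with p-values adjusted by the Benjamini-Hochberg method over all of them and called under 0.05. None of the 9 tested members was called, against 0.037% of all genes tested, 0.0074% higher and 0.0296% lower. Before adjustment, at p under 0.05, Tfrc was higher and Hpx and Trf were lower in shTopors, which is 3 of 9 against 14.7% of all genes, 3.98% higher and 10.7% lower. Both shTopors libraries lay outside the shCtrl pair for 4 members, 1 higher (Tfrc) and 3 lower (Hpx, Trf and Tfr2). The same held for 49.8% of all genes tested, 14.6% higher and 35.2% lower. With 2 libraries against 2, an exact permutation test cannot give a two-sided p below 0.33, so none was used. The median log2 difference was -0.56 over the tested members and -0.18 over all genes tested, and median-of-ratios scaling moved the all-gene median to 0.007. That scaling changed the split of all called genes from 1 higher and 4 lower to 0 higher and 1 lower, and changed the sign of Slc11a2 alone among the members. Among all genes with an unadjusted p under 0.05, 27.1% were higher in shTopors, and 57.6% after that scaling.

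**Figure D1:**
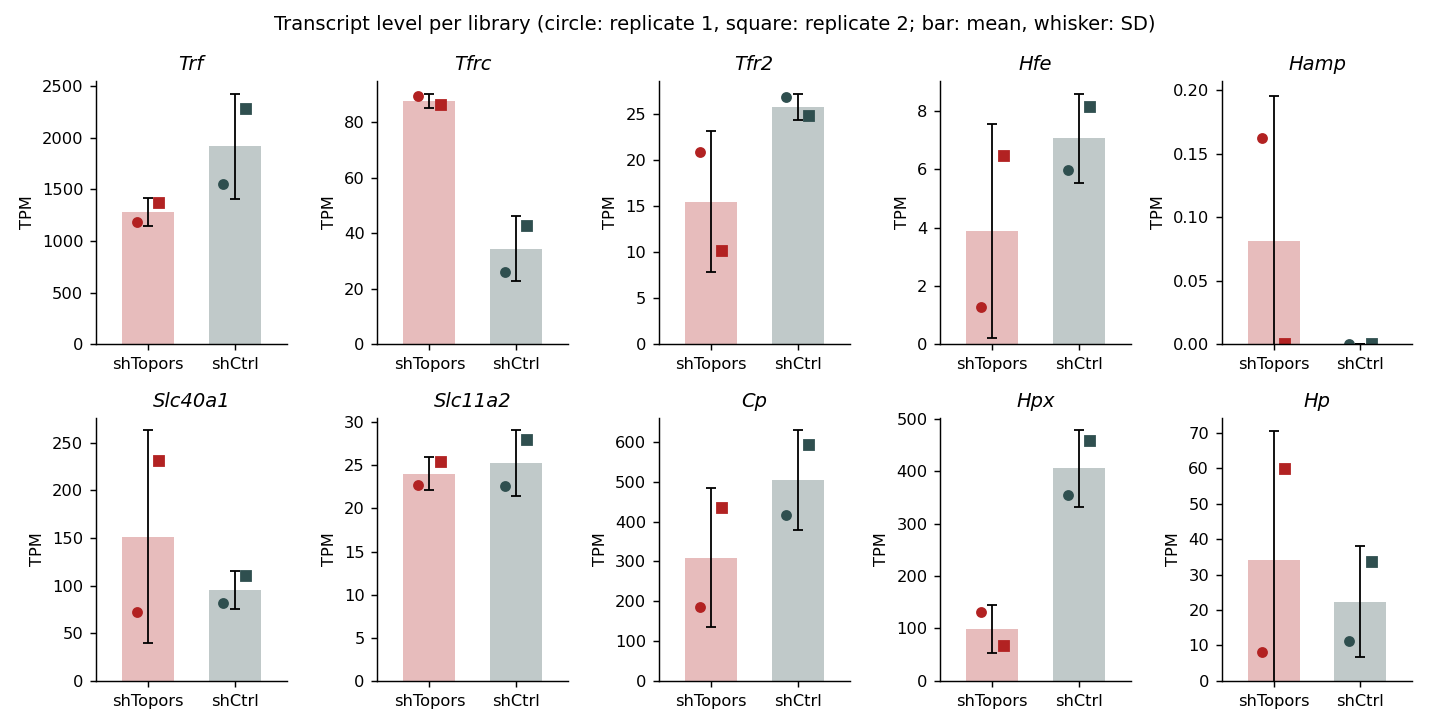
TPM of the 10 genes in each library, on a linear axis from 0 with a separate scale per gene, for shTopors (red, left) and shCtrl (dark, right); bars are means and whiskers SD of 2 libraries, cut at 0. The shTopors points of Tfrc lie above both shCtrl points, those of Hpx, Trf and Tfr2 lie below both, and those of Slc40a1, Cp, Hfe and Hp are far apart from each other.

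Transferrin was the most abundant message of the group. Trf (ENSMUSG00000032554, mm10 chr9:103204001-103230444, minus strand) had 1182 and 1373 TPM in shTopors, against 1556 and 2279 TPM in shCtrl. The shTopors libraries were both below the shCtrl libraries, which differed more from each other than the shTopors pair did. Means were 1278 ± 135 TPM in shTopors and 1917 ± 512 TPM in shCtrl (SD, n = 2 each). The log2 difference of Trf was -0.56 (SE 0.24), and limma gave an adjusted p = 0.338. Without shTopors 2 it was -0.67, and it was -0.84 without shCtrl 1 and -0.29 without shCtrl 2. A fit with 1 library left out takes its spread from the other group alone. Such fits are therefore given gene by gene as effect sizes without p-values. Trf ranked 98th and 75th among all genes by level in shTopors, and 57th and 30th in shCtrl. It made up between 59.9% and 69.0% of the summed TPM of the 10 genes in each library. Gm20425, an annotated coding gene on the same strand, overlaps Trf and stood at or below 1.97 TPM in each library.

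The 2 transferrin receptor genes differed in opposite directions. Tfrc (ENSMUSG00000022797, mm10 chr16:32608920-32632794, plus strand) encodes transferrin receptor 1, which imports iron-loaded transferrin into most cells. It was listed at 89.6 and 86.0 TPM in shTopors, against 26.1 and 42.7 TPM in shCtrl. Both shTopors libraries were above both shCtrl libraries and within 1.04-fold of each other. Means were 87.8 ± 2.51 TPM in shTopors and 34.4 ± 11.7 TPM in shCtrl (SD, n = 2 each), a ratio of 2.55. The log2 difference was 1.37 (SE 0.30), with limma's adjusted p at 0.172, and it lay at percentile 99.3 of the differences of all genes tested. Without shTopors 1 or without shTopors 2 the log2 difference of Tfrc was 1.34 or 1.395. It was 1.02 without shCtrl 1 and 1.71 without shCtrl 2.

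Tfr2 (ENSMUSG00000029716, mm10 chr5:137569840-137587481, plus strand) encodes transferrin receptor 2, which serves as an iron sensor of hepatocytes. It was listed at 20.9 and 10.1 TPM in shTopors, against 26.8 and 24.8 TPM in shCtrl. The groups did not overlap, and shTopors 1 lay closer to the controls than to shTopors 2. The log2 difference of Tfr2 was -0.78 (SE 0.37), and limma gave an adjusted p = 0.379. Without shTopors 1 it was -1.27, and without shTopors 2 it was -0.29. Within a library, the ratio of Tfrc to Tfr2 in TPM was 4.29 and 8.55 in shTopors, against 0.976 and 1.72 in shCtrl. The ratio of Trf to Tfrc in TPM was 13.2 and 15.97 in shTopors, against 59.5 and 53.4 in shCtrl. Neither ratio overlapped between groups. That follows from Tfrc being above both controls and Tfr2 and Trf below both, so the ratios add no further evidence. A ratio within a library shows unequal change only.

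**Figure D2:**
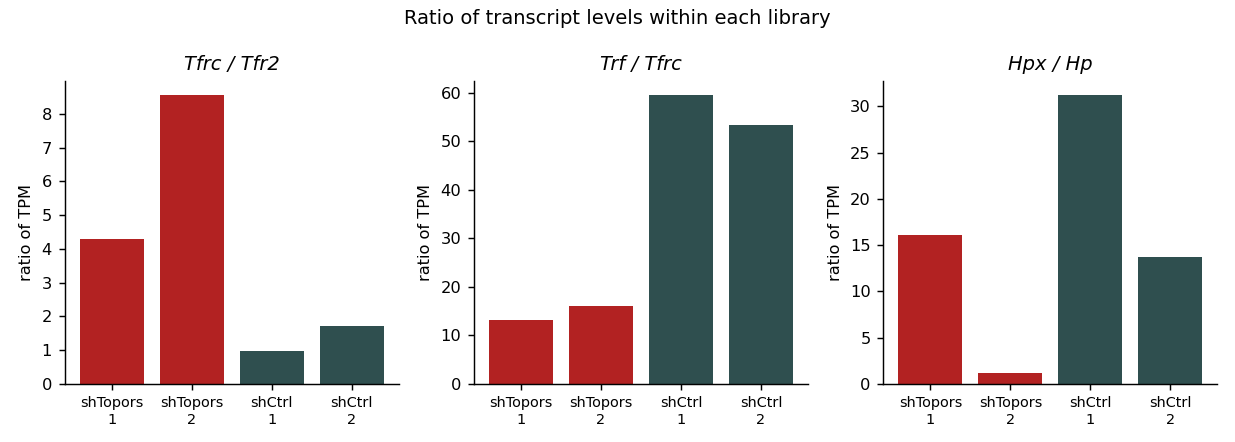
Ratio of TPM of Tfrc to Tfr2, Trf to Tfrc and Hpx to Hp within each library, on linear axes from 0, with shTopors libraries in red on the left and shCtrl libraries in dark on the right. The Tfrc to Tfr2 bars are above both shCtrl bars in shTopors, the Trf to Tfrc bars are below both, and the Hpx to Hp bars overlap between groups.

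Hepcidin itself was listed at or near 0. Hamp (ENSMUSG00000050440, mm10 chr7:30942368-30944032, minus strand), which encodes the hepcidin peptide hormone, was listed at 0.162 TPM in shTopors 1 and at 0 TPM in shTopors 2, and at 0 TPM in both shCtrl libraries. Hamp2, its neighbouring paralog, was at 0 TPM in all 4 libraries. No fold is given against a group at 0. Upstream windows of RefSeq, 250 bases each, were searched on both strands for 8 motifs. For BMP signalling the letters were GGCGCC, and for STAT factors the paired half-sites TTCNNNGAA. For C/EBP factors a loose pattern, TTGNNNAA, was searched, which does not require both full half-sites. The hypoxia response core was searched as ACGTG. The E-box, which contains that core, was searched as CACGTG. The antioxidant response core was searched as TGACNNNGC, the TATA box as TATAAA, and an HNF1 consensus site was the eighth. Capitals in printed windows are kept for the first 4 (BMP, STAT, C/EBP and hypoxia), and both these and the windows printed were chosen after the matches were seen, so the choice carries no weight. The window before the Hamp start on GRCm38.p6 (chr7:30944030-30944279, minus strand) is shown because hepcidin is the textbook output of BMP, SMAD and IL-6 signalling. Capitals mark GGCGCC, the core of a BMP response element, and then TTCNNNGAA, paired STAT half-sites:
Hamp upstream window: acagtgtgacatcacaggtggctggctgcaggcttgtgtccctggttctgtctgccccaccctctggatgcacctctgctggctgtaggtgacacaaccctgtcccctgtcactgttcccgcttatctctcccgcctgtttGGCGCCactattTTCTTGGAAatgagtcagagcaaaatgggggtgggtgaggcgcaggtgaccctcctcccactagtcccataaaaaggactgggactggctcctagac
The first match runs from 109 to 104 bases before the start and the second from 97 to 89, and they do not overlap. Of 32851 RefSeq windows of the same length, 9.59% held GGCGCC and 7.02% held TTCNNNGAA on either strand, and none of the other 6 motifs was in the Hamp window.

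Hfe (ENSMUSG00000006611, mm10 chr13:23702034-23710854, minus strand) encodes an MHC class I-like protein that regulates hepcidin. It was listed at 1.28 and 6.46 TPM in shTopors, against 5.97 and 8.14 TPM in shCtrl. The low level was in shTopors 1 only, while shTopors 2 lay between the controls, so the groups overlapped. The log2 difference of Hfe was -0.95 (SE 0.54), and limma gave an adjusted p = 0.446. Without shTopors 1 it was -0.10, and without shTopors 2 it was -1.80.

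Around these 3 genes, 25 genes of hepcidin regulation were followed: BMP ligands and receptors, SMADs, their targets and IL-6 signalling. Of 17 tested, none was called. At an unadjusted p under 0.05, 7 were lower and 0 higher, against 10.7% and 3.98% of all genes tested. Groups did not overlap for 12 lower genes and 1 higher gene, against 35.2% and 14.6% of all genes tested. The median log2 difference was -0.60, against -0.18 over all genes tested. Atoh8, a transcription factor gene that responds to BMP signalling, was listed at 0.639 and 3.17 TPM in shTopors, against 10.9 and 12.4 TPM in shCtrl. Smad7, which encodes an inhibitory SMAD that BMP and TGF-beta signals induce, was listed at 13.6 and 18.03 TPM in shTopors, against 44.9 and 37.1 TPM in shCtrl. Both genes were lower in each shTopors library than in either control, with an adjusted p = 0.154 for Atoh8 and 0.165 for Smad7 in limma's test.

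Further BMP targets, chosen after their values were seen, stood the same way. Id1, a direct SMAD target, was listed at 57.3 and 91.6 TPM in shTopors, against 122 and 180 TPM in shCtrl. Smad6, the other inhibitory SMAD gene, was listed at 2.11 and 1.76 TPM in shTopors, against 5.39 and 6.14 TPM in shCtrl. Their adjusted p was 0.244 for Id1 and 0.177 for Smad6 in limma's test. Smad1, a signal-transducing SMAD, was the 1 gene of the list with groups apart in the higher direction, at 27.5 and 31.96 TPM in shTopors and at 22.0 and 26.5 TPM in shCtrl. Bmp6, the main iron-regulated ligand of this route in the liver, where other cells make it, was at 0 TPM in all libraries. Hjv, matched by its older symbol Hfe2, was also at 0 TPM in all libraries, and Tmprss6 had a mean of 0.4 TPM. Both were picked from the list with their values in view.

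Iron export and import genes had groups that overlapped. Slc40a1 (ENSMUSG00000025993, mm10 chr1:45908068-45926523, minus strand) encodes ferroportin, the cellular iron exporter. It was listed at 72.6 and 230 TPM in shTopors, against 81.6 and 110 TPM in shCtrl. One shTopors library lay below both controls and the other above both. The log2 difference of Slc40a1 was 0.45 (SE 0.50), and limma gave an adjusted p = 0.687. Without shTopors 2 it was -0.38, and without shTopors 1 it was 1.27. Such fits borrow the spread of the other group for the lone library.

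Slc11a2 (ENSMUSG00000023030, mm10 chr15:100387898-100425072, minus strand) encodes DMT1, which moves ferrous iron across endosomal and intestinal membranes. It was listed at 22.7 and 25.4 TPM in shTopors, against 22.6 and 28.0 TPM in shCtrl. Both shTopors values lay inside the shCtrl range, and the highest library was the smallest multiple of the lowest among the 9 tested genes. Its log2 difference was -0.06 (SE 0.27, adjusted p = 0.918 in limma's test) and 0.14 after median-of-ratios scaling.

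Cp (ENSMUSG00000003617, mm10 chr3:19957054-20009145, plus strand) encodes ceruloplasmin, the copper-containing ferroxidase of plasma. It was listed at 186 and 434 TPM in shTopors, against 416 and 593 TPM in shCtrl. Only shTopors 1 was below both controls, and shTopors 2 lay between them. Means were 310 ± 175 TPM in shTopors and 504 ± 125 TPM in shCtrl (SD, n = 2 each), with a log2 difference of -0.80 (SE 0.40) and an adjusted p = 0.402 in limma's test. Without shTopors 1 the log2 difference was -0.19, and without shTopors 2 it was -1.41. Hps3, on the opposite strand, overlaps Cp and was listed at 7.35 to 12.0 TPM. Whether reads were counted by strand is not stated, so reads of Cp and Hps3 may not be told apart.

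Hemopexin had the largest difference among the tested members. Hpx (ENSMUSG00000030895, mm10 chr7:105591613-105600137, minus strand) had 131 and 66.5 TPM in shTopors, against 354 and 457 TPM in shCtrl. Both shTopors libraries were far below both controls. Means were 98.8 ± 45.6 TPM in shTopors and 405 ± 72.7 TPM in shCtrl (SD, n = 2 each), which is 4.1-fold lower in shTopors. The log2 difference was -2.09 (SE 0.35), or -1.91 relative to the median of all genes tested, and it lay at percentile 0.4 of their differences. The adjusted p = 0.121 in limma's test did not pass. Without shTopors 1 or without shTopors 2 the log2 difference of Hpx was -2.58 or -1.61. It was -2.28 without shCtrl 1 and -1.91 without shCtrl 2.

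The RefSeq window of 250 bases before the Hpx start on GRCm38.p6 (chr7:105600117-105600366, minus strand) is shown because Hpx differed most. Capitals mark TTGNNNAA, a loose pattern for sites of C/EBP factors, a family that acts on acute phase genes of the liver:
Hpx upstream window: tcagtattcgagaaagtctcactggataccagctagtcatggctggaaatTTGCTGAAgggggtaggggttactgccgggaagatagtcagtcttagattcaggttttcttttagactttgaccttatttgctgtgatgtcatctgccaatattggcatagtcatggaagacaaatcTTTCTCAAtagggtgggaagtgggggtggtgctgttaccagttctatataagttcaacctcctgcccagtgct
The matches start 200 and 73 bases before the start site and do not overlap. TTGNNNAA was present in 33.3% of the 32851 windows, so such matches are common. TGACNNNGC also matched once, from 95 to 87 bases before the start and left in lower case, and 10.2% of windows held it. The other 6 motifs, among them ACGTG, a hypoxia response core, were not in this window. Over all windows ACGTG was in 16.6%, CACGTG in 6.02%, TATAAA in 12.4% and the HNF1 site in 0.0609%. Of the 10 members, 6 had a window in the RefSeq table, and matches were not confined to Hamp and Hpx. GGCGCC also matched in a Tfrc window, ACGTG in windows of Tfrc and Tfr2, and TTGNNNAA in windows of Tfr2 and Cp. A match to TGACNNNGC was also in the Hfe window, and TATAAA was in a Cp window.

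Of 13509 tested genes, the profiles nearest to that of Hpx over the 4 libraries belonged to Copz2, Irs1 and D630003M21Rik. Likeness is the root mean square difference of log2(TPM + 1) centred on each gene's own mean, and it was 0.091, 0.198 and 0.199. Irs1, the insulin receptor substrate 1 gene, was listed at 3.94 and 2.33 TPM in shTopors, against 18.2 and 19.3 TPM in shCtrl. Copz2, a coatomer subunit gene, was listed at 1.53 and 0.151 TPM in shTopors, against 5.98 and 6.89 TPM in shCtrl. With 4 libraries, near matches among so many genes carry little information.

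Haptoglobin varied most between libraries of a group. Hp (ENSMUSG00000031722, mm10 chr8:109575128-109579172, minus strand) had 8.14 and 59.8 TPM in shTopors, against 11.3 and 33.4 TPM in shCtrl. The shTopors pair spanned the controls on both sides. The log2 difference was 0.20 (SE 0.86), and limma gave an adjusted p = 0.923. Without shTopors 1 it was 1.56, and without shTopors 2 it was -1.17. It was -0.54 without shCtrl 1 and 0.935 without shCtrl 2. Leaving out either of 2 libraries, shTopors 2 or shCtrl 1, thus turned the direction.

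**Figure D3:**
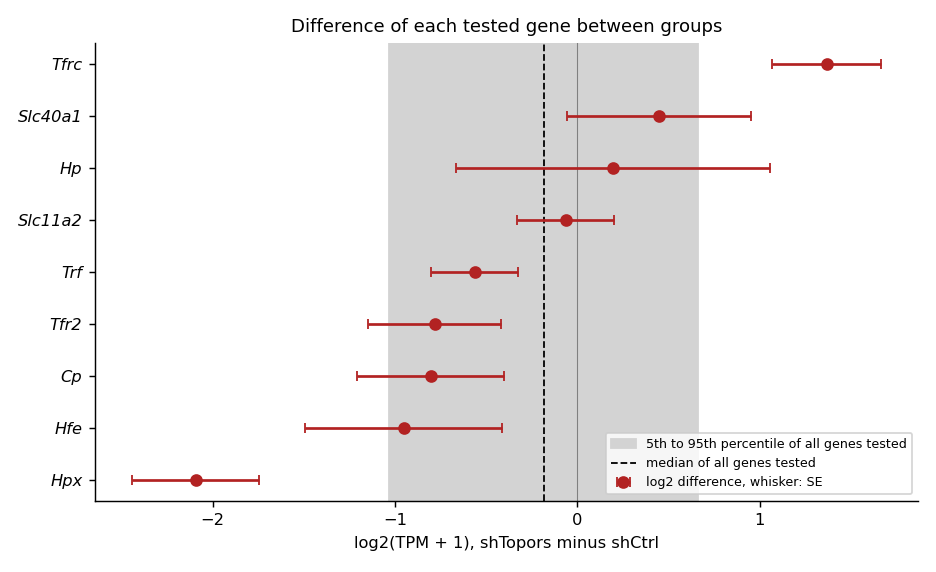
Log2 difference, shTopors minus shCtrl, of the 9 tested genes in log2(TPM + 1), with SE whiskers; the dashed line is the median of all genes tested and the grey band their 5th to 95th percentile, from -1.03 to 0.66. Tfrc lies above the band at 1.37 and Hpx below it at -2.09, and the other 7 lie inside.

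By mean level over the 4 libraries the order was Trf, Cp, Hpx, Slc40a1, Tfrc, Hp, Slc11a2, Tfr2, Hfe and Hamp. Trf was clear of Cp, Tfr2 of Hfe and Hfe of Hamp, in that the ranges of TPM over libraries did not overlap. All other neighbours in the order overlapped. The secreted members Trf, Hamp, Cp, Hpx and Hp summed to 1508 and 1933 TPM in shTopors, against 2336 and 3362 TPM in shCtrl. The membrane members Tfrc, Tfr2, Hfe, Slc40a1 and Slc11a2 summed to 207 and 358 TPM in shTopors, against 163 and 213 TPM in shCtrl. The secreted sums did not overlap between groups, and the membrane sums did. Trf, itself lower in both shTopors libraries, made up most of each secreted sum. Of the other secreted members, Hpx did not overlap between groups, Cp and Hp did, and Hamp was at or near 0. Together the 10 genes took 0.172% and 0.229% of TPM in shTopors, against 0.25% and 0.358% in shCtrl.

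The shTopors libraries were unlike each other for several members. Hp, Hfe, Slc40a1 and Cp were at least 2-fold apart in the shTopors pair on the log2(TPM + 1) scale, which is 4 of 9 against 10.8% of all genes tested. Each of the 4 was higher in shTopors 2, with TPM ratios of 7.35 for Hp, 5.03 for Hfe, 3.17 for Slc40a1 and 2.33 for Cp. In the shCtrl pair only Hp was that far apart, 2.95-fold, against 2.38% of all genes. Tfr2 and Hpx leaned the other way, with TPM ratios of shTopors 1 to shTopors 2 of 2.07 and 1.97. Tfrc, Slc11a2 and Trf were within 1.16-fold in the shTopors pair. Hepatocyte markers were apart in the same pair, 6 of 9 by at least 2-fold, with 2 higher in shTopors 2 and 4 higher in shTopors 1. Alb, the albumin gene, was listed at 4.15 and 402 TPM in shTopors, against 118 and 271 TPM in shCtrl. Apoa1, the main protein of high-density lipoprotein, was listed at 113 and 11.5 TPM in shTopors, against 12.3 and 28.4 TPM in shCtrl. Alb and Apoa1, picked with their values in view, thus stood apart in opposite directions, and the part of these markers in the members' spread was not tested.

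**Figure D4:**
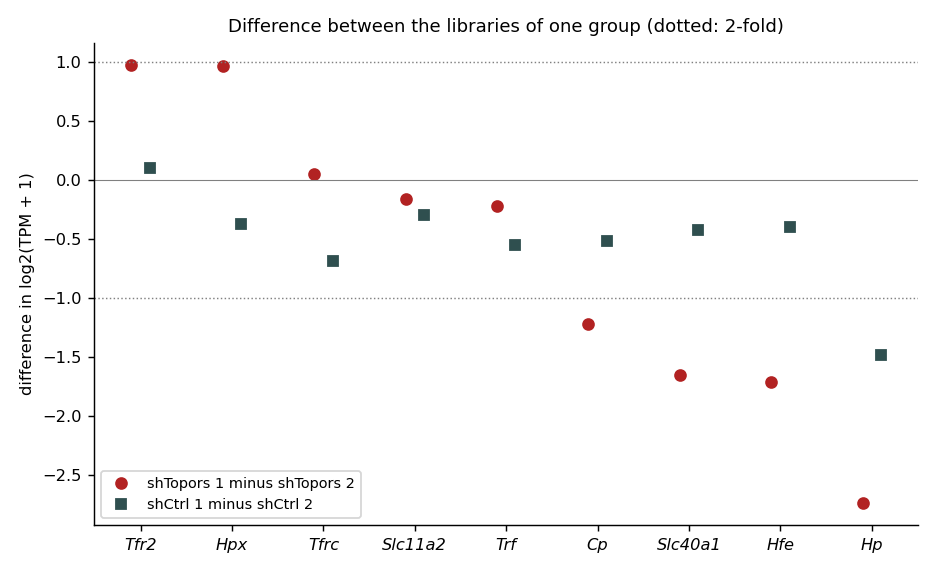
Difference in log2(TPM + 1) between the libraries of one group for the 9 tested genes, shTopors 1 minus shTopors 2 as red circles and shCtrl 1 minus shCtrl 2 as dark squares; dotted lines mark 2-fold. Red circles of Cp, Slc40a1, Hfe and Hp lie below the lower dotted line, and of the dark squares only that of Hp does.

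Calls depended on which libraries were in the fit. Without shTopors 1, 5 members were called (Tfrc, Slc40a1 and Hp as higher, Hpx and Tfr2 as lower), against 8.49% of all genes. Without shTopors 2, 6 members were called (Tfrc as higher, and Hpx, Trf, Cp, Hfe and Hp as lower), against 16% of all genes. Tfrc and Hpx each had the same direction in both fits, and Hp had opposite directions. Both fits use the same shCtrl pair, and their spread comes from that pair alone. The fits are therefore not independent, and their calls do not measure the spread within shTopors. With either control left out, no member was called.

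Acute phase plasma proteins, to which Hp, Hpx and Cp also belong, were also uneven in the shTopors pair. Of 18 other acute phase genes, 7 were tested and none was called. Groups did not overlap for 2 lower genes and 1 higher gene, against 35.2% and 14.6% of all genes tested. The median log2 difference was -0.80, against -0.18 over all genes tested. Set against the control means, the list median was -1.43 in shTopors 1 and -0.27 in shTopors 2. It was -0.366 in shCtrl 1 and 0.366 in shCtrl 2. At least 2-fold apart in the shTopors pair were 5 of 7 genes, against 10.8% of all genes tested. Of these, 4 were higher in shTopors 2, and Orm1 was higher in shTopors 1, at 10.1 TPM against 1.385 TPM in shTopors 2. Lbp, which encodes lipopolysaccharide-binding protein, was listed at 134 and 224 TPM in shTopors, against 334 and 392 TPM in shCtrl. Apcs, the serum amyloid P gene, was listed at 8.97 and 30.2 TPM in shTopors, against 43.2 and 80.4 TPM in shCtrl. Their adjusted p was 0.223 for Lbp and 0.244 for Apcs in limma's test. C3, complement component 3, picked with its values in view, was listed at 31.0 and 427 TPM in shTopors, against 270 and 569 TPM in shCtrl.

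Iron storage and sensing genes had a median near that of all genes. Of 13 genes, 10 were tested and none was called, with a median log2 difference of -0.25. At an unadjusted p under 0.05, 2 were lower and 0 higher, against 10.7% and 3.98% of all genes tested. Ncoa4, which delivers ferritin to lysosomes, was listed at 40.0 and 37.1 TPM in shTopors, against 54.8 and 77.6 TPM in shCtrl (adjusted p = 0.291 in limma's test). Nedd4l, a ubiquitin ligase gene that acts on DMT1, was listed at 14.0 and 14.7 TPM in shTopors, against 23.2 and 29.7 TPM in shCtrl (adjusted p = 0.258 in limma's test). Both had groups that did not overlap.

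The genes with iron-responsive elements shown above did not share a direction, but their elements are of unlike kinds. Those of Tfrc are in the 3′ UTR and act on message decay. The 5′ UTR elements of Fth1, Ftl1 and Slc40a1 act on translation, which TPM do not measure. A shared direction is therefore not required, iron regulation was not tested, and no inference on it is drawn. Fth1, ferritin heavy chain, was listed at 1272 and 1524 TPM in shTopors, against 1927 and 1713 TPM in shCtrl, and limma gave an adjusted p = 0.409. Ftl1, ferritin light chain, was listed at 4476 and 3029 TPM in shTopors, against 3647 and 3022 TPM in shCtrl, and both have processed copies that can share reads. Among the carriers, Tfrc was higher in both shTopors libraries and Fth1 lower in both, while Ftl1 and Slc40a1 overlapped. Of the genes for the iron regulatory proteins, Aco1 had a log2 difference of -0.18 and Ireb2 one of -0.31, both with overlapping groups. Fbxl5, whose product marks iron regulatory protein 2 for degradation, was listed at 165 and 159 TPM in shTopors, against 107 and 135 TPM in shCtrl. These 5 genes were chosen after their values were seen.

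Uptake genes other than the members, 8 tested of 13, had no call and a median log2 difference of -0.34. Groups did not overlap for 4 lower and 0 higher genes, against 35.2% and 14.6% of all genes tested. Snx3, a sorting nexin gene that recycles the transferrin receptor, was listed at 34.9 and 45.9 TPM in shTopors, against 58.2 and 83.9 TPM in shCtrl (adjusted p = 0.295 in limma's test). Slc39a8, a zinc and iron importer gene, was listed at 0.874 and 1.59 TPM in shTopors, against 1.61 and 2.23 TPM in shCtrl (adjusted p = 0.568 in limma's test).

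Next came the genes that handle heme downstream of hemopexin and haptoglobin. Of 13 genes for heme uptake, export and breakdown, 11 were tested and none was called, with a median log2 difference of -0.28. At an unadjusted p under 0.05, 3 were lower and 0 higher, against 10.7% and 3.98% of all genes tested. Groups did not overlap for 6 lower and 2 higher genes, against 35.2% and 14.6% of all genes tested. Lrp1, the receptor that takes up the hemopexin and heme complex, was listed at 4.25 and 2.49 TPM in shTopors, against 9.35 and 13.5 TPM in shCtrl. Slc48a1, which encodes a heme transporter of endosomes and lysosomes, was listed at 33.4 and 39.5 TPM in shTopors, against 74.3 and 68.1 TPM in shCtrl. Both were lower in each shTopors library than in either control, with an adjusted p = 0.172 for Lrp1 and 0.208 for Slc48a1 in limma's test. Cd163, the macrophage receptor of the haptoglobin and haemoglobin complex, was at 0 TPM in all libraries. Hmox1, heme oxygenase 1, picked with its values in view, was listed at 33.9 and 42.0 TPM in shTopors, against 47.4 and 44.7 TPM in shCtrl.

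Heme synthesis and mitochondrial iron genes lay above the all-gene median for 15 of 22 tested, of 23 in the list. By definition of a median, 6754 of all 13509 genes tested lie above it. None of the list was called, and its median log2 difference was -0.01. At an unadjusted p under 0.05, 1 was lower and 1 higher, against 10.7% and 3.98% of all genes tested. Groups did not overlap for 4 lower and 2 higher genes, against 35.2% and 14.6% of all genes tested. Abcb6, a porphyrin transporter gene, was listed at 20.5 and 21.3 TPM in shTopors, against 7.65 and 11.8 TPM in shCtrl (adjusted p = 0.224 in limma's test). Fech, which encodes ferrochelatase, the last enzyme of heme synthesis, was listed at 36.4 and 26.1 TPM in shTopors, against 47.1 and 51.6 TPM in shCtrl (adjusted p = 0.332 in limma's test). Abcb6 and Fech differed in opposite directions, each with groups that did not overlap. Alas1, the rate-limiting enzyme of heme synthesis in liver, picked with its values in view, was listed at 29.4 and 33.0 TPM in shTopors, against 27.7 and 32.2 TPM in shCtrl.

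**Figure D5:**
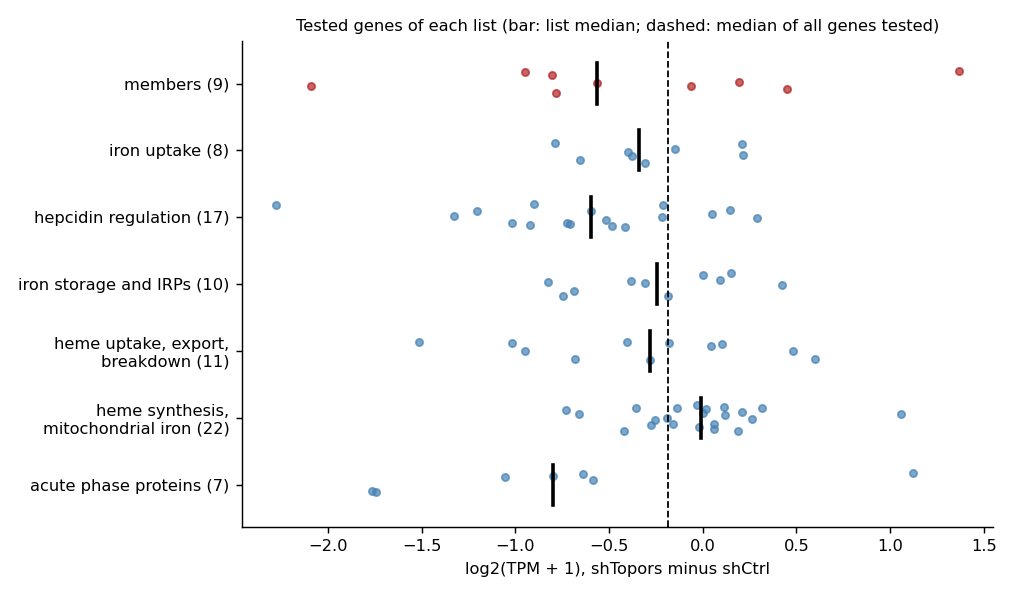
Log2 difference, shTopors minus shCtrl, in log2(TPM + 1), of each tested gene of the members (red) and of the 6 lists (blue), with the number tested in brackets; the short bar is the list median and the dashed line the median of all genes tested, -0.18. List medians run from -0.80 for acute phase proteins to -0.01 for heme synthesis and mitochondrial iron, and the members' median is -0.56.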

How the data were processed

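The authors deposited 1 table of TPM per gene, from ribosome-depleted, strand-specific libraries. The submitters' processing notes name the build mm10 and the tools StringTie, DESeq2, HTSeq and HISAT2, without versions or roles, and no source used here says which of them wrote the TPM. Rows of a repeated identifier were summed, columns were matched to samples by name, and 0 columns were left over. All symbols of the members and lists were found, 3 of the list symbols by an older name.

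The contrast was shTopors minus shCtrl on log2(TPM + 1), fitted by limma (version 3.58.1, run in R 4.3.3) with a trend of variance on level and no other term. Genes entered if their mean reached 1 TPM. Fold changes on this scale understate the change of low genes. The fit was tested on simulated data with the same spread for every gene and both groups. The shTopors and shCtrl pairs were unequally spread, so that test does not show how the fit performs on these data. Members and lists were chosen with earlier results of these data known. Named genes are the members, Topors, per list the genes called (up to 4) or else the 2 with the smallest p, per marker list the 2 with the highest mean (the text gives only some), and the 3 profiles nearest to the member with the smallest p. UTR sites come from GENCODE M21 (mm10) and upstream windows from RefSeq (GRCm38.p6). Alternatives were pseudocounts of 0.1 and 5, other filters, scalings and variance models, a block for the replicate number, and leaving out each library. Python 3.11.15 and matplotlib 3.10.9 were also used.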

Additional observations from a re-analysis of the deposited data

How the results depend on the processing

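There were 2 libraries per group and TPM keep no depth, and members were called only with a shTopors library left out. Over all genes, 1 was called higher and 4 lower. The counts were 0 and 0 with no filter on low values. They were 0 higher and 1 lower under a stricter filter (mean of 5 TPM), with quantile normalization, with median-of-ratios scaling, and when rescaled without small RNAs, mitochondrial and the most abundant genes. With 1 library left out they ranged from 0 to 687 higher and from 0 to 1479 lower. The count of members called was 0 under every alternative that kept all 4 libraries and ranged from 0 to 6 with 1 left out. The lists' called genes, 0 in the fit of all libraries, ranged from 0 to 20. Members with groups that did not overlap, 4 with all libraries (49.8% of all genes) and 3 after quantile normalization (47.3%), ranged from 5 to 8 with 1 left out. A lone library overlaps less easily, and the share of all genes then ranged from 67.2% to 82.4%.

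With the replicate number as a block, 6 genes were called higher and 27 lower, no member was called, and Topors had an adjusted p = 0.0497. The labels do not say that the numbers pair the libraries. Deviations of same-numbered libraries correlated at 0.199 over 13509 genes, and whether they are paired is not known.

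Among the members, the log2 difference of Slc11a2 was 0.09 with quantile normalization and 0.142 with median-of-ratios scaling, and it ranged from -0.212 to 0.084 with 1 library left out. That of Slc40a1 ranged from -0.38 to 1.27 and that of Hp from -1.17 to 1.56 with 1 library left out. Trf, Tfrc, Tfr2, Hfe, Cp and Hpx kept their direction under each alternative, and with 1 library left out ranged from -0.838 to -0.287 (Trf), 1.02 to 1.71 (Tfrc), -1.274 to -0.292 (Tfr2), -1.805 to -0.098 (Hfe), -1.412 to -0.195 (Cp) and -2.58 to -1.61 (Hpx). The cause of these shifts was not tested.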

Other observations

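Some iron genes known from intestine, erythroid cells or other tissues were absent or nearly so in both groups. Of 105 genes on the 6 lists, 12 were listed at 0 TPM in all 4 libraries. They include Heph, a ferroxidase of the intestine, Ftmt, mitochondrial ferritin, and Alas2, the erythroid form of the first enzyme of heme synthesis. Not all of them are genes of other tissues. Hepcidin regulation genes (Hjv, by its older symbol Hfe2, and Hamp2) and acute phase genes (Saa2, Saa4 and Serpina3m) are also among them. Cybrd1, a duodenal iron reductase gene, was listed at 0.00887 and 0 TPM in shTopors, against 0 and 0.0191 TPM in shCtrl. Of the Steap family of metalloreductases and their relatives, Steap2 was listed at 24.2 and 22.2 TPM in shTopors, against 24.3 and 27.4 TPM in shCtrl. Steap3, the endosomal reductase of erythroid cells, was listed at 13.5 and 12.2 TPM in shTopors, against 18.6 and 14.0 TPM in shCtrl, and Steap1, which lacks the reductase domain of the others, at 39.9 and 35.6 TPM in shTopors, against 36.6 and 28.7 TPM in shCtrl. Slc39a14, an importer of iron not bound to transferrin in the liver, was listed at 43.8 and 34.7 TPM in shTopors, against 40.9 and 63.1 TPM in shCtrl. Lcn2, which encodes the siderophore-binding lipocalin 2, was listed at 3.75 and 36.4 TPM in shTopors, against 14.3 and 27.8 TPM in shCtrl, so shTopors 1 and shTopors 2 lay on opposite sides of the controls. These genes were chosen after their values were seen.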
